A study of Mus musculus with 6 samples.

Results

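The Hippo effectors YAP and TAZ and their TEAD partners were examined as a set of 10 genes out of the 19938 genes on the array. The set held the kinase genes Lats1 and Lats2, the effector genes Yap1 and Wwtr1 (TAZ), the transcription factor genes Tead1 to Tead4, and the target genes Ccn2 (Ctgf) and Ccn1 (Cyr61). They were chosen by symbol, and each was read by its probe set that carries 1 gene symbol and has the highest mean over the arrays. All 10 were measured, and all 10 lay above a background level of 6.828. That level is the 95th percentile over 1027 olfactory receptor genes, whose products sense odours in the nose.

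The cells were stromal cells of the bone marrow, which can give rise to adipocytes and osteoblasts, from C57BL/6 mice at 6 months of age. One group came from mice labelled as knockouts of the microRNA miR-188 (KO, 3 arrays) and the other from wild-type mice (WT, 3 arrays). Cells of both genotypes were in adipogenic medium, with 1 µM of the glucocorticoid dexamethasone, 5 µg/ml of insulin, 3-isobutyl-1-methylxanthine, which blocks phosphodiesterases, at 0.5 mM, and 10% fetal calf serum. The labels call the replicates biological without saying whether each came from a mouse of its own, so the p-values reflect only how far these samples spread, which may be technical. The sources used here give neither the time in this medium nor which bases the knockout removes. The probe set for Mir188 read 7.22, 7.22 and 7.13 in KO, against 7.22, 7.27 and 7.38 in WT, a difference of -0.10 (adjusted p = 0.348, limma). The groups overlapped, and whether the probes lie in the deleted bases is not known, so this reading is no check of the genotype labels. The microRNA that the KO label names has the mature sequences below, from RefSeq on GRCm38.p6, on the minus strand of chromosome X at chrX:7248031-7248051 and chrX:7247992-7248012. They are shown to identify the labelled allele, with the seed (bases 2 to 8) in capitals.
miR-188-5p: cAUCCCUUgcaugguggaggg
miR-188-3p: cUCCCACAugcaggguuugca

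In the Hippo pathway, LATS kinases phosphorylate YAP and TAZ, which are then held in the cytoplasm or degraded. YAP and TAZ that reach the nucleus bind TEAD proteins on DNA and switch on genes such as Ccn2 and Ccn1. In mesenchymal precursor cells TAZ is known to restrain PPARG and the adipocyte programme and to assist RUNX2 in the osteoblast programme. YAP and TAZ are controlled mainly through phosphorylation and location, which transcript levels do not measure.

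The arrays of each genotype resembled each other closely, with correlations across genes of 0.9979 to 0.9988 within a genotype and of 0.996 to 0.9976 between genotypes. Of all genes, 7.31% passed the limma test at an adjusted p under 0.05, 3.34% higher and 3.97% lower in KO. The stromal identity was checked with 12 markers, of which 11 were measured and 10 lay above background. Among them Thy1 (mean 7.27 in both genotypes) and Eng (7.17 in KO, 7.18 in WT) were dimmer than the muscle marker Pax7 (7.56 in KO, 7.57 in WT). Lying above this level therefore does not by itself show that a gene was expressed. Lepr, a marker of adipogenic stromal cells in the marrow, was below background in both genotypes. Of 8 macrophage markers 2 lay above background (Cd68 and Fcgr1) and the defining Adgre1 and Csf1r did not. Cd68 was bright, with a mean of 10.85 in KO and 11.04 in WT. Of 8 endothelial markers 4 lay above background (Cdh5, Kdr, Tie1 and Vwf), with Pecam1 below. Of 6 lymphoid and of 4 erythroid markers 1 each did. Of 6 skeletal muscle markers 4 lay above background (Myod1, Acta1, Ckm and Pax7), with Myog and Myh3 below. Of 7 adipocyte markers 5 were above background, with Adipoq and Lep below.

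Of the 10 genes, Ccn2 and Yap1 were lower in KO by the test, and the other 8 did not pass it. That is 20.0% of the set called lower, against 3.97% of all genes, many of which lay below background. In a fit of only the 13090 genes above background, 2192 genes were called in either direction, and 2 of the 10 members were. Both changes were small, 1.15-fold for Ccn2 and 1.13-fold for Yap1. The values of the 3 KO arrays did not overlap those of the 3 WT arrays for 7 of the 10 genes, 2 higher and 5 lower, against 24.9% of all genes in either direction. The median difference over the set was -0.074 (KO minus WT, log2), against 0.005 over all genes. The set was brighter, with mean log2 levels per array of 10.09 to 10.14 in KO and 10.15 to 10.19 in WT. Over all genes these means were 7.71 to 7.73 in KO and 7.70 to 7.73 in WT. Genes within 0.5 of a member's level had median differences of -0.045 (near Ccn2) to -0.003 (near Tead3), so 0.005 is not a like-level comparison.

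**Figure D1:**
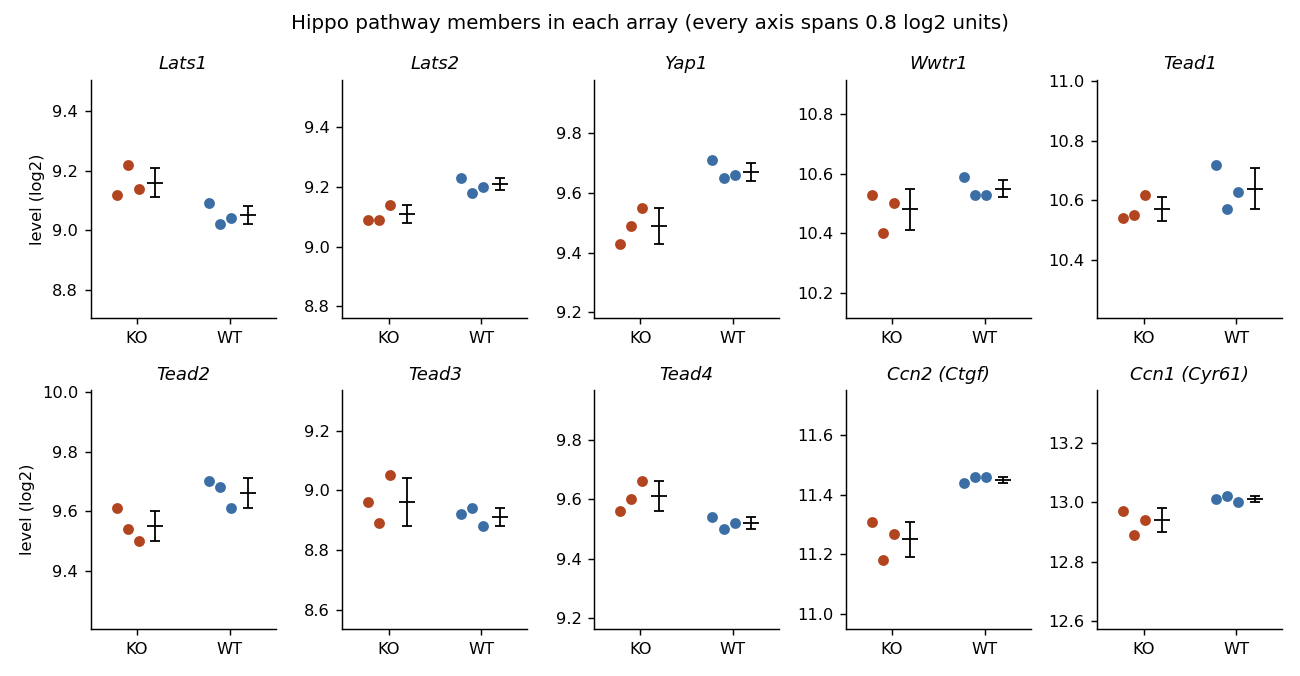
Level (log2 expression) of each of the 10 genes in the 3 KO arrays (left, red-brown) and the 3 WT arrays (right, blue), with the mean and SD of each group as a bar. Yap1 lay between 9.43 and 9.55 in KO and between 9.65 and 9.71 in WT, and Ccn2 between 11.18 and 11.31 in KO and between 11.44 and 11.46 in WT.

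The LATS kinases come first in the order of the pathway. Lats1 had log2 levels of 9.12, 9.22 and 9.14 in the KO arrays, against 9.09, 9.02 and 9.04 in the WT arrays. Lats2, which YAP also induces in a negative feedback loop, had 9.09, 9.09 and 9.14 in KO, against 9.23, 9.18 and 9.20 in WT. The KO values of Lats1 all lay above those of WT, and the KO values of Lats2 all lay below. Lats1 differed by 0.11 (95% interval 0.02 to 0.20, adjusted p = 0.175, limma) and Lats2 by -0.10 (95% interval -0.18 to -0.02, adjusted p = 0.147), and neither passed the test. Whether the 2 kinase genes moved apart was not tested.

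The effector Yap1 had log2 levels of 9.43, 9.49 and 9.55 in KO, against 9.71, 9.65 and 9.66 in WT. All 3 KO arrays lay below all 3 WT arrays. The means were 9.49 ± 0.06 in KO and 9.67 ± 0.03 in WT (SD, n = 3 arrays each), a difference of -0.18 (SE 0.04, 95% interval -0.28 to -0.08, adjusted p = 0.0467, limma). The call sat close to the threshold: it was lost whichever array was left out (adjusted p = 0.0622 to 0.155), while the difference stayed between -0.21 and -0.15. In RNA from bulk cultures, fewer cells that express Yap1 and less Yap1 RNA per cell cannot be told apart. Its paralog Wwtr1, which encodes TAZ, had 10.53, 10.40 and 10.50 in KO, against 10.59, 10.53 and 10.53 in WT, and KO replicate 1 reached the lower WT values. Wwtr1 differed by -0.07 (95% interval -0.18 to 0.03, adjusted p = 0.428, limma), an interval that includes 0 and reaches the size of the Yap1 difference. That Yap1 passed and Wwtr1 did not is no test of a difference between them.

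The promoters of both effector genes, 250 bases before to 50 bases after the gene's start in RefSeq on GRCm38.p6, are shown because each holds the letters of the core TEAD motif. The motif was searched as GGAATG on both strands (CATTCC on the reverse), and matches are in capitals. In Yap1 (minus strand, chr9:8004547-8004846) the match began at position -141 from the start, and in Wwtr1 (minus strand, chr3:57575861-57576160) at position -136.
Yap1: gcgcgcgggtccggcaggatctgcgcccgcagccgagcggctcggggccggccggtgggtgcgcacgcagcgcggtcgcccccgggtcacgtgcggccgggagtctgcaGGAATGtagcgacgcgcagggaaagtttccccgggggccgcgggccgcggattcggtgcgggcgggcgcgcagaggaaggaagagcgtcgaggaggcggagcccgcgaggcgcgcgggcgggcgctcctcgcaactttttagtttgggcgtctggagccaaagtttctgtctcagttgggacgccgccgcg
Wwtr1: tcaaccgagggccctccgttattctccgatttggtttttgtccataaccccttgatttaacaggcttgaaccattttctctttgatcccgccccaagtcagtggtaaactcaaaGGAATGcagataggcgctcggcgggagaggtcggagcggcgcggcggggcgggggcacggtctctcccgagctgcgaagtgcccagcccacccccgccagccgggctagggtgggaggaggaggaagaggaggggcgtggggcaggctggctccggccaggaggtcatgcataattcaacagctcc
Of 7 set members with a promoter sequence, 5 had a match in at least 1 of their promoters (Yap1, Wwtr1, Tead3, Lats2 and Ccn1), against 16.6% of 27025 genes. A single promoter held the letters in 14.7% of 32851 cases. Several members have more than 1 promoter, and a match says only that the letters are present. Tead1, Tead4 and Ccn2 were not analysed for promoters.

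The 4 TEAD genes encode the DNA-binding partners that YAP and TAZ share. Tead1 had log2 levels of 10.54, 10.55 and 10.62 in KO, against 10.72, 10.57 and 10.63 in WT. Tead2 had 9.61, 9.54 and 9.50 in KO, against 9.70, 9.68 and 9.61 in WT. The Tead1 groups overlapped, and the highest KO value of Tead2 was equal to the lowest WT value at 2 decimals. Tead3 had 8.96, 8.89 and 9.05 in KO, against 8.92, 8.94 and 8.88 in WT. Tead4 had 9.56, 9.60 and 9.66 in KO, against 9.54, 9.50 and 9.52 in WT. The Tead3 groups overlapped, while all 3 KO values of Tead4 lay just above the WT values.

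No TEAD gene passed the test. The differences were -0.07 for Tead1 (95% interval -0.18 to 0.04), -0.11 for Tead2 (-0.21 to -0.01), 0.05 for Tead3 (-0.06 to 0.16) and 0.09 for Tead4 (0.00 to 0.18). The adjusted p-values were 0.481, 0.189, 0.618 and 0.237 in the same order (limma). The bound farthest from 0 was the lower one of Tead2, at -0.21. Tead1 had a second probe set, with a difference of -0.04 (adjusted p = 0.679 over all 21789 probe sets with 1 symbol, limma).

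The target genes encode secreted matricellular proteins that bind integrins. Ccn2, or connective tissue growth factor, had log2 levels of 11.31, 11.18 and 11.27 in KO, against 11.44, 11.46 and 11.46 in WT. All KO arrays lay below all WT arrays, and the KO values were the more spread. The means were 11.25 ± 0.06 in KO and 11.45 ± 0.01 in WT (SD, n = 3 arrays each), a difference of -0.20 (SE 0.04, 95% interval -0.30 to -0.10, adjusted p = 0.0336, limma). The call held in 1 of the 6 fits without 1 array, that without KO replicate 1 (adjusted p otherwise 0.0625 to 0.143). It was also lost after quantile normalization again (-0.16, adjusted p = 0.0618) and after cyclic loess (-0.16, adjusted p = 0.0645).

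Ccn1 had log2 levels of 12.97, 12.89 and 12.94 in KO, against 13.01, 13.02 and 13.00 in WT. The KO values all lay below the WT values, by a margin of 0.03 between the nearest arrays. Ccn1 differed by -0.08 (95% interval -0.16 to 0.01, adjusted p = 0.279, limma) and did not pass the test. Genes with levels near that of Ccn1, within 0.5 on the log2 scale, had a median difference of -0.039, and those near Ccn2 one of -0.045, against 0.005 over all genes. After cyclic loess, which evens out such level-dependent shifts, Ccn1 differed by -0.02. The Ccn1 promoter (minus strand, chr3:145649936-145650235) is shown for its match on the reverse strand, which began at position -103.
Ccn1: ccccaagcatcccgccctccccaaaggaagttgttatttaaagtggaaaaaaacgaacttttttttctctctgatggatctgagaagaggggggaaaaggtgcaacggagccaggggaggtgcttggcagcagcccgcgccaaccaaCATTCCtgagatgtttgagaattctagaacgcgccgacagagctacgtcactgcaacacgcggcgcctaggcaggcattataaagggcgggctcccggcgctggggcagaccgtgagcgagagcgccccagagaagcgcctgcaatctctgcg

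**Figure D2:**
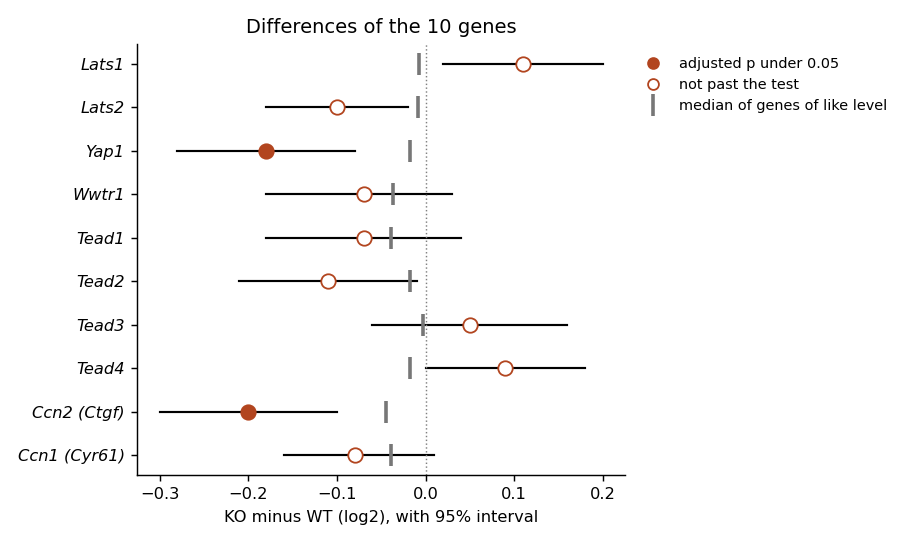
Difference between KO and WT (log2, x axis) for each of the 10 genes from top to bottom in pathway order, with its 95% interval as a line and the median difference of genes of like level as a grey tick. Filled points passed the test. Ccn2 at -0.20 and Yap1 at -0.18 are filled, and Lats1 at 0.11 lies farthest to the right.

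The direction of each of the 10 differences was the same in all 13 alternative settings. The filter on genes above background, the trend and robust variances and the replicate block cannot change a difference, so direction was fixed there. The mean of probe sets can change it only for Tead1, the member with a second probe set. Yap1 passed the test in 6 of the 13 and Ccn2 in 5. Lats1 passed in 1, with array weights, at a difference of 0.11 (adjusted p = 0.0439, limma). The other 7 genes passed in none.

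**Figure D3:**
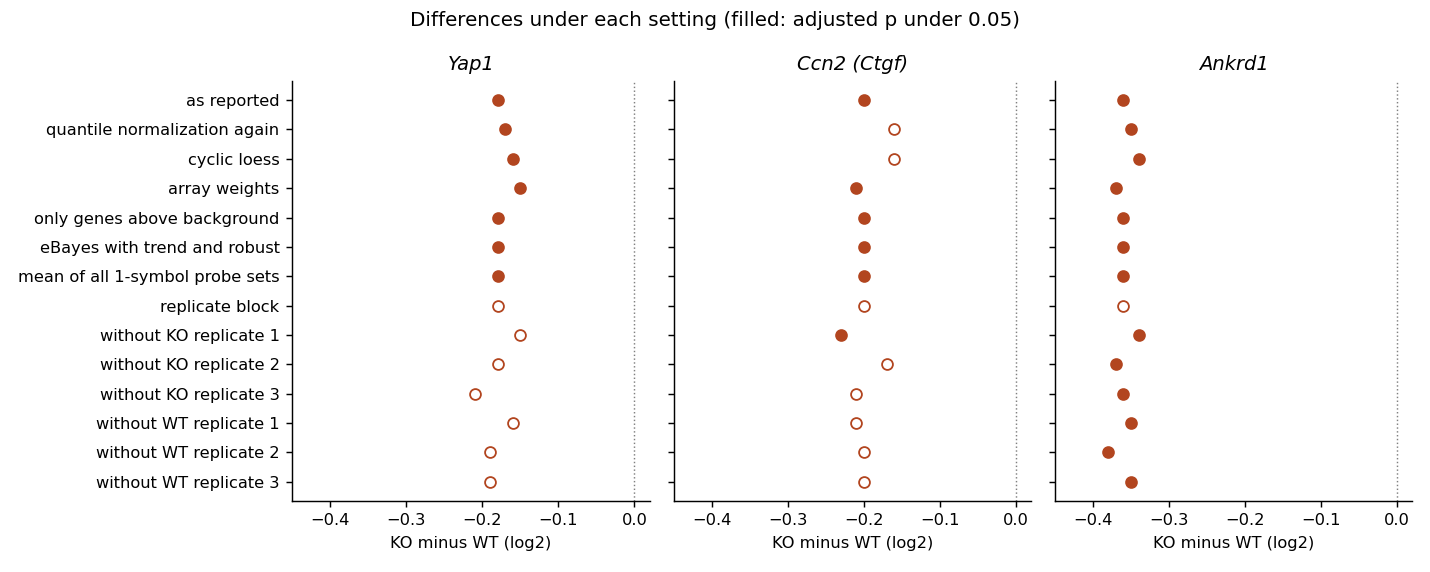
Difference between KO and WT (log2, x axis) of Yap1, Ccn2 and the target gene Ankrd1 as reported and under each of 13 alternative settings (rows), filled where the adjusted p was under 0.05. Yap1 spans -0.21 to -0.15 and Ccn2 -0.23 to -0.16, and most of their open points are fits without 1 array.

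Some genes followed the same course over the 6 arrays. For each of 4 members, the 3 genes above background with the smallest root mean square difference of values centred on their own mean were taken, out of 13090 genes. Nearest to Yap1 were Prpf38b, Taf10 and Tax1bp3, each at 0.014 on the log2 scale. Nearest to Ccn2 were Ostc (0.012), Syngr1 (0.012) and Fscn1 (0.013), and Fscn1 encodes the actin-bundling protein fascin. Nearest to Wwtr1 were Kirrel (0.003), Slc19a1 (0.005) and Acp5 (0.008), and nearest to Ccn1 were Fbln1 (0.007), Igfbp4 (0.009) and Mcrs1 (0.009). These distances describe 6 arrays.

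The wider pathway was read from 5 further lists that held 66 measured genes. Of these, 2 rose and 9 fell in KO, 16.7% called against 7.31% of all genes. Over all 66 genes, called or not, 29 differences lay below 0 and 37 above, with a median of 0.016, against 0.005 over all genes. The called genes lay in the lists of target genes, of YAP and TAZ binding proteins and of other CCN genes. None lay among the upstream kinases or among the inhibitors of MST and LATS as fitted here, although some of their genes passed under other settings. In the fit of only genes above background, 17 of the list genes were called, and 2192 of 13090 genes were.

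**Figure D4:**
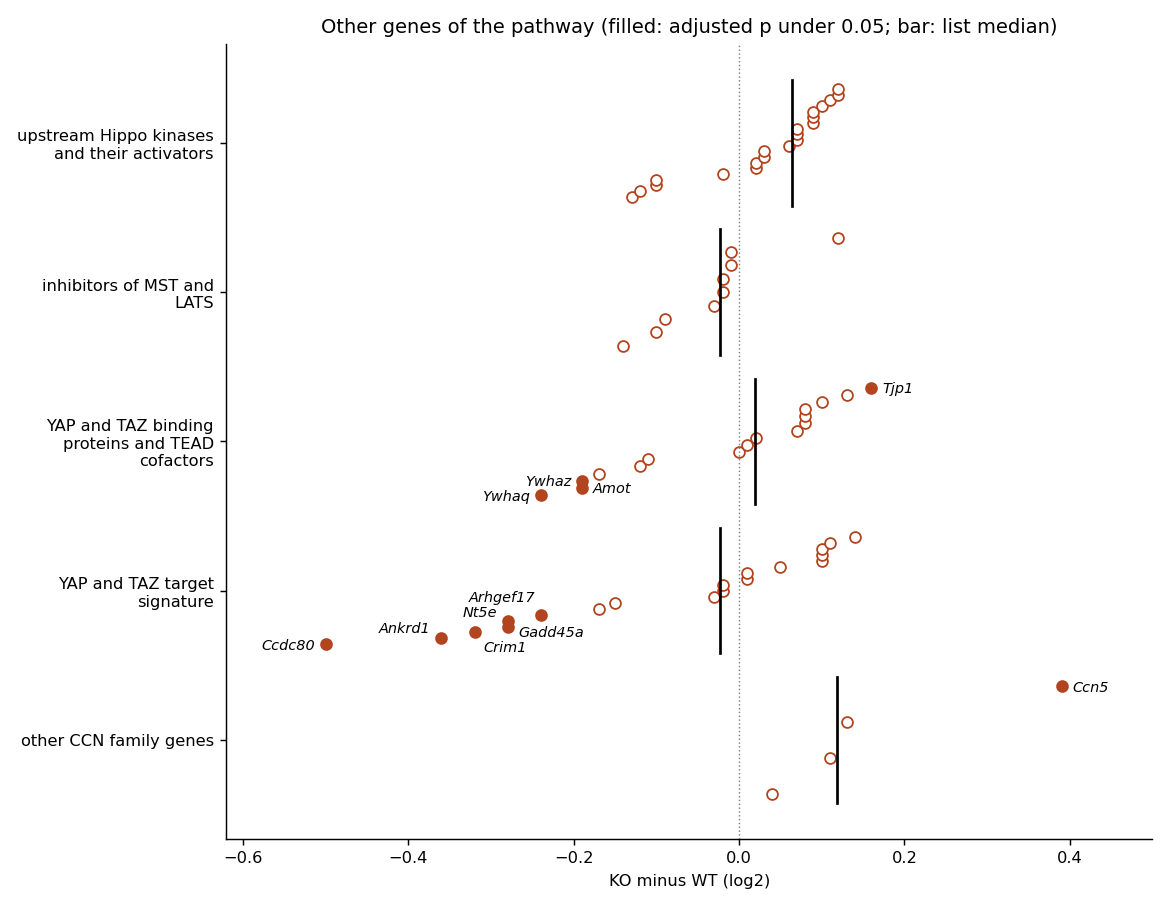
Difference between KO and WT (log2, x axis) of each measured gene in the 5 lists (rows), filled and named where the adjusted p was under 0.05, with the list median as a bar. The 6 filled target genes lie between -0.50 and -0.24, and Ccn5 stands alone at 0.39.

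Of 20 measured upstream kinases and activators, none passed the test with limma, and 4 had an unadjusted p under 0.05, or 20.0%, against 20.7% of all genes. The smallest p-values were those of Fat4, an atypical cadherin, at -0.13 (adjusted p = 0.0709, limma) and Taok2, a kinase upstream of MST, at 0.12 (adjusted p = 0.0976). Fat4 passed after cyclic loess (adjusted p = 0.0491, limma), with array weights (0.0227) and among genes above background (0.0335), and Taok2 passed in the last 2 of these settings (0.033 and 0.0483). The list's differences ran from -0.13 to 0.12, with 15 of 20 above 0 and a median of 0.064, against 0.005 over all genes. Stk3, Map4k2 and Map4k3 were not analysed here. Of 9 inhibitors of MST and LATS none passed either, 3 had an unadjusted p under 0.05 (33.3%, against the same 20.7%), and the median was -0.023. The smallest p-values there were those of Sike1, a subunit of the STRIPAK phosphatase complex, at 0.12 (adjusted p = 0.0624) and Strn4, a striatin scaffold of that complex, at -0.14 (adjusted p = 0.121). Sike1 passed with array weights (adjusted p = 0.0156, limma), among genes above background (0.0288) and with trend and robust variances (0.0402), and Strn4 passed with array weights (0.0347).

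Of 16 YAP and TAZ binding proteins and TEAD cofactors, 1 rose, 3 fell and 12 did not pass. That is 25.0% called, against 7.31% of all genes. With limma 11 had an unadjusted p under 0.05 (68.8%, against 20.7% of all genes), and all 16 lay above background. Both shares of all genes include many genes below background. Where only the 13090 genes above it were fitted, 2192 of them were called. Tjp1, the tight junction scaffold that binds both effectors, rose by 0.16 (SE 0.03, adjusted p = 0.0238, limma). Its log2 levels were 9.56, 9.55 and 9.55 in KO, against 9.39, 9.40 and 9.38 in WT, and the groups stood well apart. Amot, the angiomotin that holds YAP at junctions and on actin, fell by 0.19 (SE 0.04, adjusted p = 0.024). Its levels were 8.29, 8.36 and 8.38 in KO, against 8.55, 8.53 and 8.53 in WT. Ywhaq fell by 0.24 (SE 0.04, adjusted p = 0.0216) and Ywhaz by 0.19 (SE 0.03, adjusted p = 0.024); both encode adaptor proteins of the family that binds phosphorylated YAP in the cytoplasm.

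The calls of Tjp1 and Amot were lost in each of the 6 fits without 1 array (adjusted p = 0.0554 to 0.116 and 0.0508 to 0.105). That of Ywhaq held only without WT replicate 2 (adjusted p otherwise 0.0683 to 0.0927) and that of Ywhaz only without KO replicate 2 (0.0532 to 0.117). Ywhaz had a second probe set with a difference of -0.02 (adjusted p = 0.926), so its 2 probe sets disagreed. Its call was also lost after cyclic loess (-0.13, adjusted p = 0.0724, limma) and with the mean of its probe sets (-0.10, adjusted p = 0.244). Of the same adaptor family Ywhae (-0.11), Ywhab (0.07), Ywhag (0.08) and Ywhah (0.08) did not pass and lay on both sides of 0. The list median was 0.019.

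The target signature is a list of genes induced by YAP and TAZ in human cancer cells, taken here by their mouse orthologs and without the 3 that are in the set. Among its 19 measured genes, 6 were called lower in KO, 0 were called higher, and the remaining 13 missed the threshold. The share called lower was thus 31.6%, against 3.97% of all genes. In the fit of only genes above background 7 target genes were called lower, with 2192 of 13090 genes called in either direction. How many of those genes were called lower was not counted, so the 7 have no matching share. In the fit over all genes, 11 of the 19 differences lay below 0 and the list median was -0.023. With array weights that median was 0.009. The 13 that did not pass ran from -0.17 for Amotl2, an angiomotin, to 0.14 for Fjx1, which was below background. Amotl2 (95% interval -0.30 to -0.05, adjusted p = 0.111, limma) and Dock5 (-0.15, 95% interval -0.25 to -0.05, adjusted p = 0.0794), named after their values were seen, also had all KO values below all WT values. In the other direction, Asap1, Axl, Foxf2 and Ptpn14 had all KO values above all WT values, and none of them was called. Over the list that is 8 genes below and 4 above, against 13.5% and 11.4% of all genes.

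**Figure D5:**
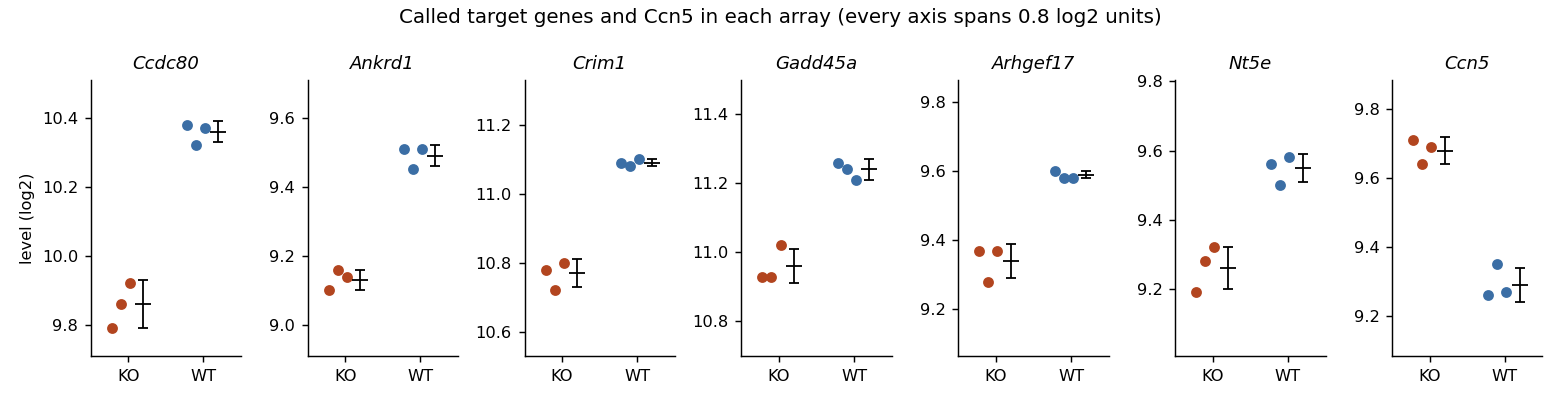
Level (log2 expression) of the 6 called target genes and of Ccn5 in the 3 KO arrays (left, red-brown) and the 3 WT arrays (right, blue), with the mean and SD of each group as a bar. The KO arrays lie below the WT arrays for the 6 target genes and above them for Ccn5, with Ccdc80 at 9.79 to 9.92 in KO and at 10.32 to 10.38 in WT.

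Ccdc80, a secreted matrix-binding protein that has been tied to adipocyte differentiation in cultured mouse cells, had log2 levels of 9.79, 9.86 and 9.92 in KO, against 10.38, 10.32 and 10.37 in WT. It fell by 0.50 (SE 0.04, adjusted p = 0.00349, limma), or 1.41-fold. Ankrd1, a stress-induced ankyrin repeat protein and a direct TEAD target, had 9.10, 9.16 and 9.14 in KO, against 9.51, 9.45 and 9.51 in WT. It fell by 0.36 (SE 0.04, adjusted p = 0.00439), or 1.28-fold. Crim1, a membrane protein that binds bone morphogenetic proteins, had 10.78, 10.72 and 10.80 in KO, against 11.09, 11.08 and 11.10 in WT. It fell by 0.32 (SE 0.03, adjusted p = 0.00559), or 1.25-fold. In all 3 genes the gap between the groups was wider than the range within either group, and the 3 calls held in each of the 6 fits without 1 array (highest adjusted p 0.0376, 0.0418 and 0.0498).

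Gadd45a, a growth arrest and DNA damage gene that p53 also induces, fell by 0.28 (SE 0.04, adjusted p = 0.0102, limma). Its log2 levels were 10.93, 10.93 and 11.02 in KO, against 11.26, 11.24 and 11.21 in WT. Arhgef17, an exchange factor for the GTPase RhoA, fell by 0.24 (SE 0.04, adjusted p = 0.0126), with 9.37, 9.28 and 9.37 in KO, against 9.60, 9.58 and 9.58 in WT. Both calls were lost without WT replicate 1 or WT replicate 3 (adjusted p = 0.05 to 0.0582 and 0.0562 to 0.0732). Nt5e, named outside the rule after its values were seen, encodes the stromal surface enzyme CD73 and fell by 0.28 (SE 0.05, adjusted p = 0.0152), a call held in 3 of the 6 fits without 1 array.

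Nt5e is also a stromal marker, and stromal markers moved with genotype in both directions. Of 11 measured, Pdgfra and Pdgfrb rose by 0.26 and 0.14 and Col1a1, Nt5e and Kitl fell by 0.28, 0.28 and 0.19. That is 45.5% called, against 7.31% of all genes. The Pdgfrb call was lost in each of the 6 fits without 1 array (adjusted p = 0.084 to 0.171, limma). Those of Pdgfra and Kitl held in 1 of the 6 and that of Col1a1 in 3. The mean log2 level of the list was 9.38 to 9.41 in KO and 9.41 to 9.44 in WT. Of 7 adipocyte markers, Pparg and Fabp4 fell by 1.27 and 0.33 (28.6% called, against 7.31% of all genes). The Pparg call held in each of the 6 fits without 1 array and that of Fabp4 in 2. The mean log2 level of the adipocyte list was 7.44 to 7.48 in KO and 7.67 to 7.72 in WT. The other 5 adipocyte markers did not pass and lay between -0.06 and 0.02, and the list median was -0.059. Cd68 fell by 0.19 and Kdr by 0.29, or 12.5% of the macrophage and of the endothelial list, against 7.31% of all genes. The Cd68 call held in 3 of the 6 fits without 1 array and that of Kdr in 1. Kdr lay near the background level of 6.828, with 6.77, 6.92 and 6.85 in KO, against 7.22, 7.02 and 7.18 in WT. The other 7 macrophage markers and the other 7 endothelial markers did not pass, nor did any lymphoid, erythroid or skeletal muscle marker. The mean log2 level of macrophage markers was 6.68 to 6.73 in KO and 6.66 to 6.74 in WT, and that of endothelial markers 6.57 to 6.65 in KO and 6.62 to 6.68 in WT. That of skeletal muscle markers was 7.48 to 7.51 in KO and 7.52 to 7.58 in WT, with Acta1 at -0.24 (adjusted p = 0.084, limma). The part of a shift in cell types in the falls of Yap1, Ccn2 and the target genes was not tested. Without Nt5e, 5 of the other 18 target genes were called lower (27.8%, against 3.97% of all genes). Of these 18 differences 10 lay below 0 and 8 above, with a median of -0.02.

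The promoters of Ankrd1 and Crim1 are shown because, of the 4 called target genes with a promoter sequence, they are the ones in which the motif was found. The promoters of Ccdc80 and Arhgef17 were not analysed here. Ankrd1 (minus strand, chr19:36119795-36120094) held 2 matches, which began at positions -210 and -123, and Crim1 (plus strand, chr17:78199998-78200297) held 1, which began at position -79.
Ankrd1: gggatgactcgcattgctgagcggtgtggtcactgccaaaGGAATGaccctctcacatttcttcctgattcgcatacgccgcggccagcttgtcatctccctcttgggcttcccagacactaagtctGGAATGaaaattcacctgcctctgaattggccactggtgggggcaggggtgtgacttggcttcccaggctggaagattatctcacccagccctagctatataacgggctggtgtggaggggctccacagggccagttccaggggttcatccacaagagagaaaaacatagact
Crim1: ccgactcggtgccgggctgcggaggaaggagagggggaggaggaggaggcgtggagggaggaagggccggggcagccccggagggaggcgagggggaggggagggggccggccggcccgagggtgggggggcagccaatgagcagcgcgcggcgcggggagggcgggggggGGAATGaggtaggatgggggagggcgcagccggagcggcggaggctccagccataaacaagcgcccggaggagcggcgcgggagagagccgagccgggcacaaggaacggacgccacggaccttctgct
Of 13 target genes with a promoter sequence 5 held a match, or 38.5%, against 16.6% of all genes with one. The promoters of the called genes Gadd45a and Nt5e held none, and those of Amotl2, Axl and Ptpn14, which were not called, held 1 each.

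The other 4 genes of the CCN family, which share the domain plan of Ccn2 and Ccn1, all had differences above 0. Ccn5, a family member that lacks the carboxy-terminal domain of the others, had log2 levels of 9.71, 9.64 and 9.69 in KO, against 9.26, 9.35 and 9.27 in WT. The groups stood far apart, and Ccn5 rose by 0.39 (SE 0.04, adjusted p = 0.00445, limma), or 1.31-fold. The call held in each of the 6 fits without 1 array (adjusted p = 0.0176 to 0.0439). Ccn3 had 9.53, 9.60 and 9.62 in KO, against 9.55, 9.47 and 9.41 in WT, with overlap, and its difference of 0.11 did not pass (adjusted p = 0.267), although it did with array weights (0.17, adjusted p = 0.0312, limma). Within the family, Ccn2 thus fell, Ccn5 rose and the other 4 genes did not pass the test.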

How the data were processed

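RNA of 6 samples (6 µg each, per the labels' protocols) was read on 1 single-colour Affymetrix array per sample. The authors deposited log2 expression values. The submitters' processing notes name RMA (robust multi-array average), Affymetrix Expression Console and Partek, with no versions. RMA brings the arrays to a common distribution, so differences are relative to other genes, and it can compress fold changes. Array medians lay between 7.19 and 7.23.

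Of 35556 probe sets, 21789 had 1 gene symbol in the platform annotation, 1621 had several and 12146 none; only the first entered. Current symbols came from matching gene identifiers to RefSeq's GRCm38.p6 annotation. This gave 19938 genes, and the brightest probe set stood for each gene. Ctgf and Cyr61 appear there as Ccn2 and Ccn1.

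KO and WT were compared with limma 3.58.1 in R 4.3.3 (lmFit and eBayes, two-sided, no covariates), with Benjamini-Hochberg adjustment over all genes. A call is an adjusted p under 0.05. The script was tested on simulated data. Arrays give no read depth, and their number limits precision. Of each further list, the called genes with the smallest p were named, at most 5 in each direction, or the 2 smallest p where fewer were called. The members, the lists and the tests were chosen with earlier results of these data known, so no pattern here is independent support for those results. Alternatives covered scaling, array weights, a filter on dim genes, the variance prior, the probe set rule, a replicate block and each array left out.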

Additional observations from a re-analysis of the deposited data

How the results depend on the processing

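All 10 members kept their direction in each of the 13 alternatives. The filter on dim genes, the variance prior and the replicate block cannot change a difference, and the probe set rule can only for Tead1. Yap1 at -0.18 lost its call with the replicate block (adjusted p = 0.182) and in the fits without 1 array (-0.21 to -0.15). Ccn2 lost its call after quantile normalization again and cyclic loess (both -0.16), with the replicate block (-0.20, adjusted p = 0.145) and in 5 of the 6 fits without 1 array (-0.23 to -0.17 over the 6). Lats1 gained one with array weights (0.11). The count of called members, 2, became 1 after quantile normalization again and cyclic loess, 0 with the replicate block and 0 to 1 without 1 array.

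The count of called genes, 1457, became 3418 with array weights, 2192 among genes above background, 2275 with trend and robust variances, 52 with the replicate block and 189 to 932 without 1 array, lowest without WT replicate 3. The called list genes, 11, became 26, 17, 17 and 0 in the same settings and 4 to 8 without 1 array. The 6 target genes called lower became 0 with the replicate block and 3 to 6 without 1 array, with 3 without WT replicate 1 or WT replicate 3. The median of binding proteins and cofactors, 0.019, became 0.003 after cyclic loess, -0.012 with array weights and -0.017 to 0.065 without 1 array, so it has no settled sign. Array weights lean on WT replicate 3, weighted 7.41 against 0.524 to 1.19 for the others. A fit without 1 array has fewer samples and so less power.

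The labels do not say that the replicate numbers pair the samples. Deviations of same-numbered arrays from their group means correlated at -0.299, -0.262 and -0.0151 across genes. Those of other KO and WT arrays correlated at -0.116 to 0.333, highest for KO replicate 1 with WT replicate 2. With 3 arrays in each group, these correlations cannot decide whether samples were paired. The replicate block costs degrees of freedom, and how far that accounts for its fewer calls was not tested.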
